A study of Mus musculus with 4 samples.

Results

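Kinesins are motor proteins that walk along microtubules, and their genes were examined in retinal RNA of wild-type mice (WT) and of mice with the mutation Q344X. The members were all genes whose mouse symbol is Kif followed by a number, with or without a further letter or digit, together with Kifc1, Kifc2, Kifc3, Kifap3, Klc1, Klc2 and Klc4, provided that at least 1 library had a value above 0. They came to 43 of the 52636 genes in the table, and the symbols of 2 further genes, Kif12 and Kif2b, fit the rule but were at 0 in every library. By known role the members were set apart as 11 ciliary genes, 16 genes of organelle and axonal transport, 12 mitotic genes and 4 others (Kif2a, Kif26a, Kif26b and Kif28).

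Both groups were 3 weeks old, and polyadenylated RNA of the retina was sequenced from 2 libraries each. The Q344X mutation is one of autosomal dominant retinitis pigmentosa, in which photoreceptors degenerate. How the allele was introduced, the number of copies carried, and the strain, sex and litter of the animals are not in the labels. The series' design text gives 3 replicates planned per group and 2 animals per group kept after exclusions for RNA quality and outliers, while the protocol for extraction counts 2 WT mice and 3 with Q344X. Nothing further ties a library to an animal, so p-values measure only the spread between these libraries, which may be technical.

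Most kinesins have a motor domain that binds microtubules and splits ATP, and a tail that binds a cargo. Heterotrimeric kinesin-2, made of the products of Kif3a, Kif3b and Kifap3, pulls intraflagellar transport trains into the cilium, and in photoreceptors it supplies the connecting cilium and the outer segment, the stack of membranes where light is captured. Kinesins of the KIF1 and KIF5 families carry vesicles and mitochondria toward synapses, and others move chromosomes and organise the spindle of dividing cells. The mature retina has few dividing cells.

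The libraries held 18452679 to 19706573 reads in genes. A normalized count is a gene's read count divided by a size factor of its library, and 16833 genes averaged 10 or more over the libraries. Of these, 919 were higher and 1531 lower in Q344X (limma, adjusted p under 0.05), with a median log2 fold change of 0.02. Of 8 rod markers 4 fell and of 7 cone markers 4 fell, as did 2 of 7 Muller glia and 1 of 7 amacrine cell markers. Of 9 ganglion cell markers 3 rose, as did 2 of 8 bipolar cell, 3 of 7 tested pigment epithelium and 1 of 3 astrocyte markers. No horizontal cell, microglia or endothelium marker passed. Among all tested genes 5.46% were called higher and 9.1% lower. In bulk tissue, fewer cells of a type and less RNA per cell cannot be told apart. Q344X replicate 2 stood apart in lens genes, although none of the 6 lens markers passed between the genotypes in limma (0 at an unadjusted p under 0.05). The summed normalized counts of 6 lens genes, crystallins among them, were 206729 and 252633 in WT, 190979 in Q344X replicate 1 and 5576 in Q344X replicate 2. No marker of these lists was at 0 in all 4 libraries. The part that these cell types have in the values of the kinesin genes was not tested.

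A few of the tested kinesin genes differed between the genotypes, and Kif19a rose far more than any other member. Of the 43 members 40 passed the filter of a mean of at least 10, and of these 3 rose (Kif19a, Kif7 and Kif22), 2 fell (Kif18a and Kif26b) and 35 did not pass (limma, Benjamini-Hochberg adjusted p under 0.05 over all 16833 genes). The share of tested members called, 12.5%, stands beside 14.6% of all tested genes, of which 5.46% were called higher and 9.1% lower. WT and Q344X libraries were fully separated in 21 of the 40 tested members (52.5%), beside 63.1% of all tested genes. The median log2 fold change of the tested members was -0.08, 27 of them lay within 0.5 of 0 on the log2 scale, and 53.8% of all tested genes did so. When every gene above 0 was tested, Kif19a alone of these members passed.

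**Figure D1:**
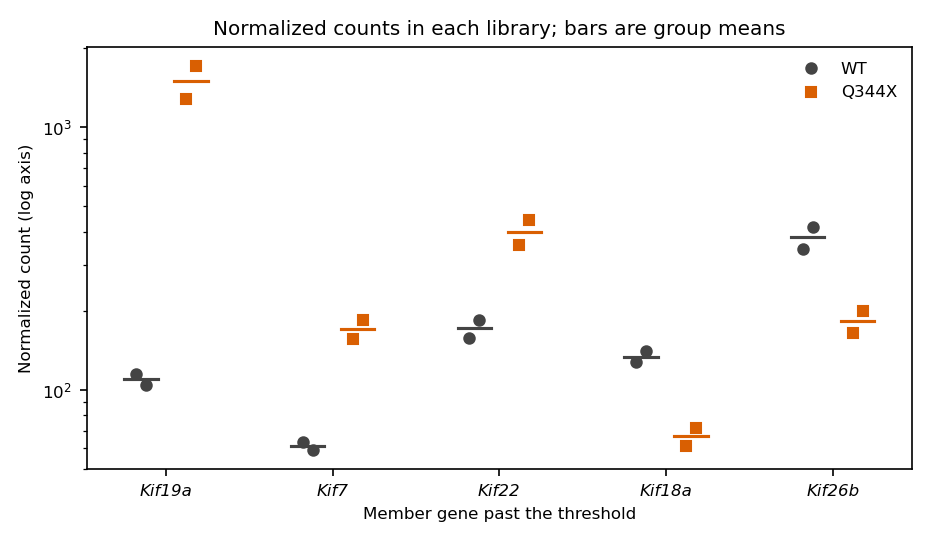
Normalized count (log axis) of each kinesin gene past the threshold in every library, WT as circles and Q344X as squares, with the group mean as a bar (2 libraries per group). Kif19a lies at 104 and 115 in WT and at 1284 and 1709 in Q344X. The groups overlap in none of the 5 genes, which were picked by limma on these same libraries. Among all tested genes 63.1% were apart.

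RefSeq's promoter table (GRCm38.p6) holds the 250 bases before RefSeq's start for 33 of the 43 members and for 4 of the 5 called members. These 4 are shown, and the called member without a window is Kif19a. For Kif22 and Kif7 the last 51 and 13 bases of the window lie inside the gene as GENCODE annotates it and are not shown. Kif22 and Kif7 rose and Kif18a and Kif26b fell, and the stretches are chr7:127042472-127042670 and chr7:79715721-79715957 on the minus strand and chr2:109280488-109280737 and chr1:178528875-178529124 on the plus strand, written 5′ to 3′ along the gene. Capitals mark matches to any of 4 motifs.
Kif22: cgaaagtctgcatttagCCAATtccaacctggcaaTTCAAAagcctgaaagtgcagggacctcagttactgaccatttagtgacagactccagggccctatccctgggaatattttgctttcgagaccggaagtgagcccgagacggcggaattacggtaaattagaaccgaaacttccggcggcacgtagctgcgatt
Kif7: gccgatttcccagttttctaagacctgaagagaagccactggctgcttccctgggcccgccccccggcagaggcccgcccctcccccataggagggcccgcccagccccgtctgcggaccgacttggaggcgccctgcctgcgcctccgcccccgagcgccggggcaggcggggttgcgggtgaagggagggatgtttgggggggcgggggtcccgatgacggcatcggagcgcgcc
Kif18a: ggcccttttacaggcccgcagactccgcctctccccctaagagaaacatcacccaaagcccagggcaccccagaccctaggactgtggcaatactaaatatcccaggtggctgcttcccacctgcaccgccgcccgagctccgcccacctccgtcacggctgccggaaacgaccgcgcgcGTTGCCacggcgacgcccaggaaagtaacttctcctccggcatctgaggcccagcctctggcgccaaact
Kif26b: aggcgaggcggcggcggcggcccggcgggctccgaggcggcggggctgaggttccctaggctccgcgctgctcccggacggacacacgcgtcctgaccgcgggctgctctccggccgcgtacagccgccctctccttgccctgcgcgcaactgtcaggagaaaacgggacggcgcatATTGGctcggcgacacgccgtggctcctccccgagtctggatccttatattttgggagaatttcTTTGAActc

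The motifs, each searched on both strands, were TTTGAA (the core of the cell cycle genes homology region of genes expressed in mitosis), CCAAT (the site of NF-Y), GTTGCC (part of the X-box bound by RFX factors at ciliary genes) and TAATCC (the site of the photoreceptor factors CRX and OTX2). No motif contains another on either strand, and none of the matches shown overlap. The Kif22 window of 250 bases held TTTGAA and CCAAT, each at 2 places, of which 1 match to each lies whole in the stretch shown, the Kif26b window held both at 1 place each, the Kif18a window held GTTGCC at 1 place and the Kif7 window held none of them. TTTGAA was in at least 1 window of 8 of the 33 matched members (24.2%) and in 16.0% of all 32851 windows, CCAAT in 16 (48.5%) and 33.8%, GTTGCC in 8 (24.2%) and 10.4%, and TAATCC in 2 (6.06%, Kif5c and Kif9) and 6.25%. The member shares count genes, which had 37 windows together, and the others count windows, so these shares are unlike measures. The Kif7 window was 74.4% G and C, that of Kif22 52.0%, and the median was 64.4% over the members' windows and 52.4% over all windows. These matches are letters in a sequence and not measured sites.

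Kif19a encodes a kinesin that takes down microtubules at the tips of motile cilia and so limits their length. The gene (ENSMUSG00000010021, chromosome 11, 114765388 to 114790739, plus strand, GRCm38) was at 115 and 104 normalized counts in WT replicates 1 and 2 and at 1284 and 1709 in Q344X replicates 1 and 2. Every Q344X library was thus more than an order of magnitude above every WT library. The means were 110 ± 7.89 and 1497 ± 301 (SD, n = 2), a ratio of 13.6, with a log2 fold change of 3.74 ± 0.22 (SE, limma adjusted p = 0.00342), and Kif19a ranked number 18 of the 16833 tested genes counted from the largest rise. Per kilobase of exon, the scale on which genes can be compared with one another, Kif19a moved from 27.0 ± 1.94 in WT, place 24 among the 43 members, to 368 ± 73.9 in Q344X, place 15. The nearest coding gene on one side, Btbd17, lies 477 bases beyond the end of Kif19a on the other strand, and it rose as well, from 36.4 and 28.1 in WT to 136 and 158 in Q344X (2.16 ± 0.27, adjusted p = 0.0107). Dnaic2, a dynein gene of motile cilia 7498 bases away on the other side, had 249 and 201 in WT and 362 and 333 in Q344X (0.64 ± 0.21, adjusted p = 0.0931). The annotated genes Kif19a and Btbd17 do not overlap. The 15 tested genes of motile cilia, given below, had a median log2 fold change of 0.59. Of 6 tested markers of multiciliated cells, all also among those 15 genes, 0 passed, and the median of these markers was 0.16. The 2 at an unadjusted p under 0.05 had opposite signs, Dnah5 with 1.47 ± 0.40 and Dnah9 with -1.22 ± 0.31. The list summed to 2491 and 1781 normalized counts in WT and to 1519 and 971 in Q344X, most of it in every library from Dnah9 and Ccdc39. Their part in the values of Kif19a was not tested.

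Kif7 encodes the kinesin of the ciliary tip that organises Hedgehog signalling and holds GLI transcription factors in check. It was at 63.4 and 59.2 normalized counts in WT and at 156 and 184 in Q344X (ENSMUSG00000050382, chromosome 7, 79698098 to 79715720, minus strand, GRCm38). Both Q344X libraries lay above both WT libraries, with a log2 fold change of 1.46 ± 0.23 (SE, limma adjusted p = 0.0187). Ticrr, which overlaps Kif7 on the other strand, rose too, from 5.20 and 4.01 to 22.8 and 22.1 (2.07 ± 0.45, adjusted p = 0.0365), and, since no source used here gives the strand setting with which reads were counted, reads of both genes in the overlap cannot be told apart. Of 9 tested genes of the Hedgehog pathway 2 rose, 0 fell and 7 did not pass, beside 5.46% of all tested genes called higher. Gli1, a transcription factor that is itself a target of the pathway, was at 1.04 and 1.003 in WT, the worth of 1 read in each library, and at 16.8 and 23.0 in Q344X (adjusted p = 0.0206). Gpr161, a ciliary receptor that restrains the pathway, was at 117.5 and 141 in WT and at 250 and 275 in Q344X (1.02 ± 0.22, adjusted p = 0.0343). Ptch1, which encodes the Hedgehog receptor and is also a target, was at 2215 and 2608 in WT and at 1727 and 1702 in Q344X (-0.49 ± 0.18), not past the threshold, and Smo had 0.21 ± 0.24.

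None of the other 9 ciliary kinesins passed the threshold. Kif24, which encodes a kinesin of the centriole that restrains cilium assembly, was at 44.7 and 29.1 normalized counts in WT and at 128 and 68.1 in Q344X. The groups did not overlap, the Q344X libraries differed by 0.90 on the log2 scale, and the difference between genotypes did not pass (1.35 ± 0.41, SE, limma adjusted p = 0.0759). It passed without WT replicate 1 (adjusted p = 0.0225), without Q344X replicate 2 (0.00448) and after a correction for exon length (0.0457). Each fit without a library leaves 1 library in that group, which is assumed to vary like those of the other genotype. Kif9, a kinesin of the axoneme of motile cilia and flagella, was at 239 and 221 in WT and at 156 and 149 in Q344X (-0.59 ± 0.20, adjusted p = 0.101). Kif6, of the same family, was near the filter, at 9.36 and 10.03 in WT and at 11.9 and 11.5 in Q344X. Kif27, a relative of Kif7 that acts in motile cilia, was at 55.1 and 45.1 in WT and at 61.4 and 48.9 in Q344X, with overlapping groups.

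The genes of heterotrimeric kinesin-2 were among the more abundant members, and no kinesin-2 gene passed the threshold. Kif3a was at 1979 and 1694 normalized counts in WT and at 2242 and 1444 in Q344X, so that the Q344X libraries enclosed both WT libraries (log2 fold change -0.03 ± 0.26, SE, 95% interval -0.65 to 0.60). Kif3b was at 3183 and 3304 in WT and at 2680 and 2374 in Q344X, without overlap (-0.36 ± 0.17, adjusted p = 0.192, limma). Kifap3, the subunit that joins the motor to its cargo, was at 3182 and 3125 in WT and at 3009 and 2643 in Q344X (-0.16 ± 0.17). Kif3c, a neuronal partner that can replace Kif3b beside Kif3a, was at 1599 and 1947 in WT and at 2174 and 2011 in Q344X (0.24 ± 0.19). The antisense gene 1110002L01Rik overlaps Kif3c and was at 1474 and 1511 in WT and at 428 and 418 in Q344X. Kif17, a homodimeric kinesin-2 studied in photoreceptor outer segments, was at 91.5 and 75.2 in WT and at 86.1 and 80.6 in Q344X (0.01 ± 0.25, 95% interval -0.61 to 0.62). Per kilobase of exon, Kifap3, Kif3b and Kif3a stood at 786, 576 and 512 in WT and Kif17 at 18.2, so the heterotrimer genes were more abundant than Kif17 in each genotype.

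Over the 11 ciliary members, all tested, 2 rose, 0 fell and 9 did not pass, with a median log2 fold change of 0.13 beside 0.02 over all tested genes. The share called was 18.2%, beside 14.6% of all tested genes. Of 23 genes of the intraflagellar transport complexes, the cargo trains of kinesin-2, 2 fell, 0 rose and 21 did not pass, with a median of -0.47. Among all tested genes 9.1% were called lower. Ift80 fell from 1857 and 1712 to 829 and 525 (-1.43 ± 0.26, SE, limma adjusted p = 0.0241) and Ift22 from 720 and 799 to 371 and 473 (-0.85 ± 0.21, adjusted p = 0.0461). Of 15 tested genes of motile cilia 2 rose, 2 fell and 11 did not pass, with a median of 0.59. In limma 8 of them had an unadjusted p under 0.05, beside 34.7% of all tested genes. Rsph9, of the radial spokes, rose from 52.0 and 42.1 to 199.98 and 246 (2.22 ± 0.25), and Ccno, a regulator of centriole production in multiciliated cells, rose from 2.08 and 3.01 to 17.8 and 22.1. Spef2 and Dnaic1, of the axoneme, fell by 1.90 and 1.63 on the log2 scale. Foxj1, the transcription factor that drives motile cilium genes, was at 77.0 and 113 in WT and at 90.1 and 220 in Q344X (0.59 ± 0.46), and Mcidas, an inducer of multiciliated cells, was at 2.08 and 1.003 in WT and at 0 in both Q344X libraries.

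**Figure D2:**
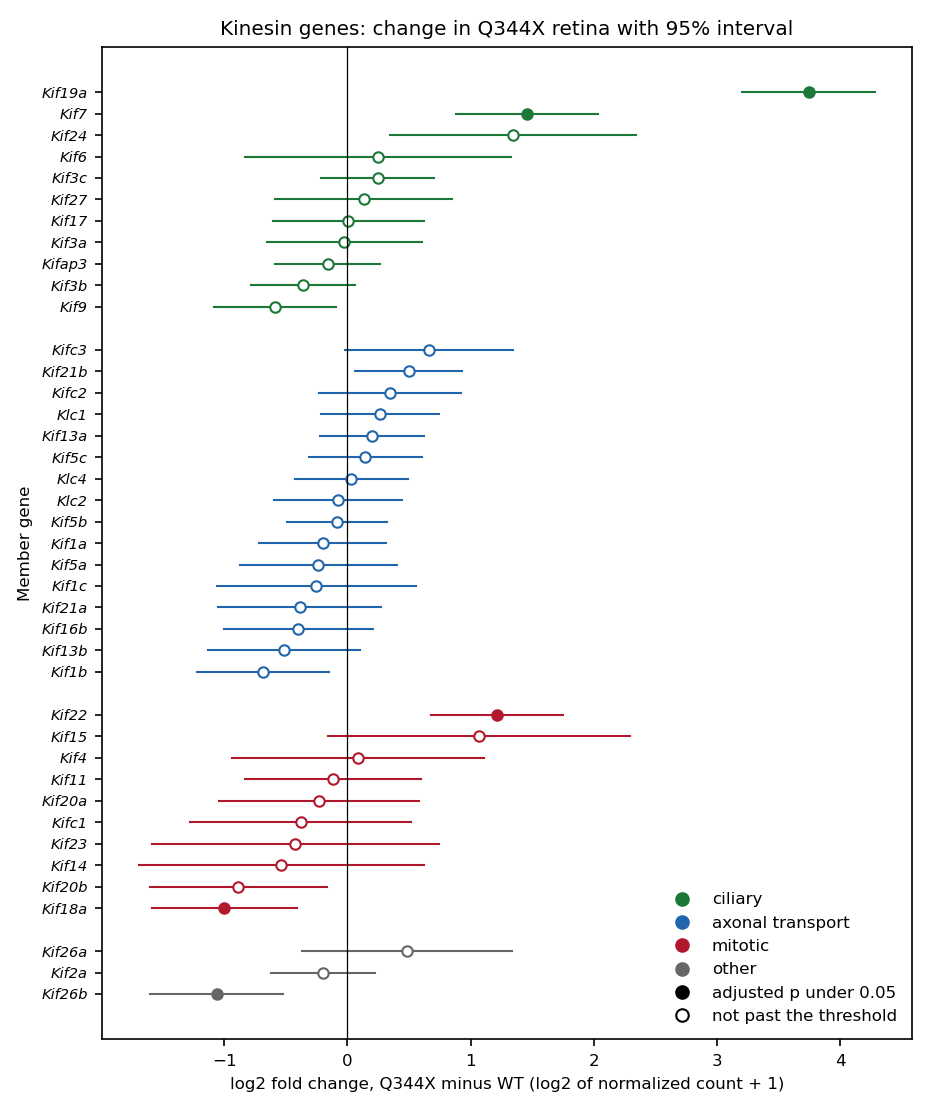
Log2 fold change of the 40 tested kinesin genes, Q344X minus WT, on the log2(normalized count + 1) scale with its 95% interval from limma, sorted within each role group. Filled points passed an adjusted p of 0.05. Kif19a at 3.74 lies far to the right of the others, and all 16 genes of organelle and axonal transport are unfilled.

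Genes of organelle and axonal transport held most of the kinesin RNA, and none of the 16 passed in limma, with 2 at an unadjusted p under 0.05 (Kif1b and Kif21b), a level that 34.7% of all tested genes reached. Their summed normalized count per kilobase was 10124 and 10682 in WT and 10557 and 9982 in Q344X, so the groups overlapped, and it was the largest of the 4 role groups in every library. The median log2 fold change was -0.08, with a range of -0.69 to 0.66, and in 7 of the 16 the ranges of WT and Q344X were apart, beside 63.1% of all tested genes.

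Kif1b, which carries synaptic vesicle precursors and, in another splice form, mitochondria, had the highest normalized count of all members. It was at 27001 and 26423 in WT and at 19367 and 14218 in Q344X (-0.69 ± 0.22, SE, limma adjusted p = 0.0852). The groups did not overlap, and the Q344X libraries were 0.45 apart on the log2 scale. Over the 13 alternatives its log2 fold change ranged from -0.91, without Q344X replicate 1, to -0.45. Kif1b has 17608 bases of exon. Over all tested genes above 6000 bases, Q344X replicate 2 was lower than replicate 1 by a median of -0.24. Kif1a, the motor of synaptic vesicle precursors, was at 11068 and 11379 in WT and at 11347 and 8422 in Q344X, with overlapping groups (-0.20 ± 0.21). Kif1c, which carries vesicles in many cell types, differed more within genotypes than between them, at 1173 and 1906 in WT and at 995 and 1587 in Q344X.

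The heavy and light chains of kinesin-1, the main motor of fast axonal transport, did not pass the threshold. The heavy chain gene Kif5a was at 4839 and 5125 normalized counts in WT and at 5359 and 3332 in Q344X, and Kif5c at 5529 and 5183 in WT and at 6539 and 5363 in Q344X, with overlap in both. Kif5b, the heavy chain gene expressed in all tissues, was at 4283 and 4288 in WT and at 3979 and 4103 in Q344X, with a 95% interval of the log2 fold change from -0.49 to 0.32. The light chain gene Klc1 was the member with the highest level per kilobase, 2075 ± 159 in WT and 2510 ± 374 in Q344X (SD, n = 2), and its normalized counts were 7988 and 8904 in WT and 9140 and 11292 in Q344X (0.27 ± 0.19, SE). Klc2 and Klc4 had log2 fold changes of -0.07 ± 0.21 and 0.03 ± 0.19.

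Among the remaining transport kinesins, Kif21b and Kif21a, which pause microtubule growth and travel along axons and dendrites, had log2 fold changes of opposite sign. Kif21b was at 7064 and 7706 in WT and at 10994 and 9859 in Q344X, without overlap (0.50 ± 0.18, SE, limma adjusted p = 0.110). Kif21a was at 5781 and 4855 in WT and at 5136 and 3192 in Q344X, with overlap (-0.39 ± 0.27). Kif13a, which carries endosomes, was at 2566 and 2701 in WT and at 3212 and 2853 in Q344X (0.20 ± 0.17), and Kif13b at 979 and 857 in WT and at 791 and 518 in Q344X (-0.52 ± 0.25). Kifc3, a motor toward microtubule minus ends, was at 514 and 734 in WT and at 803 and 1180 in Q344X (0.66 ± 0.28, adjusted p = 0.153). Kifc2 and Kif16b, a further motor toward minus ends and a motor of early endosomes, had 0.34 ± 0.24 and -0.40 ± 0.25.

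**Figure D3:**
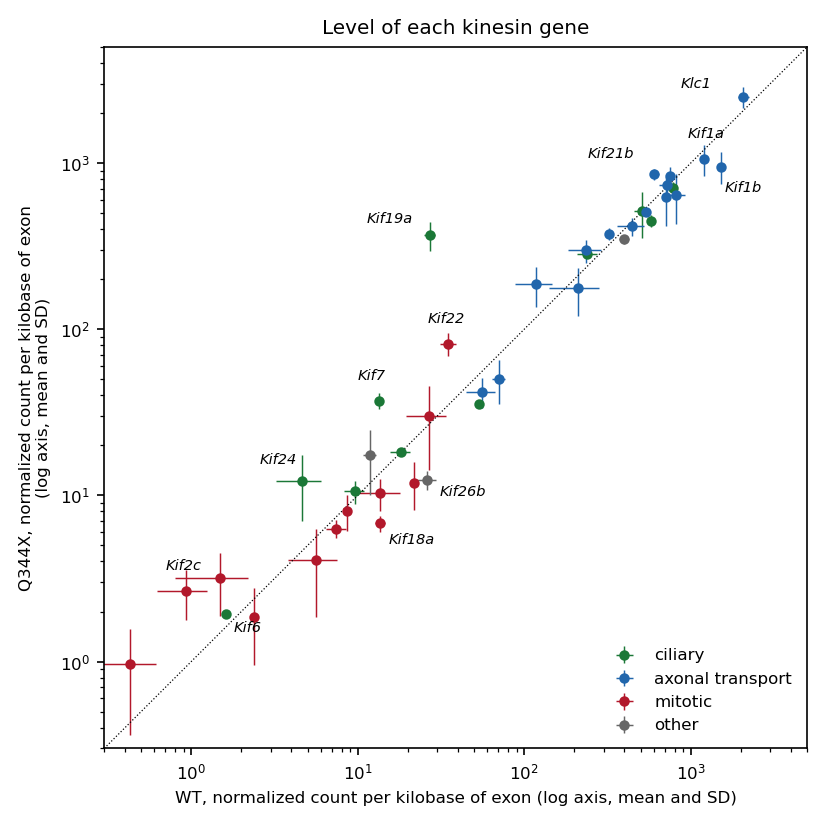
Normalized count per kilobase of exon in WT (x) and Q344X (y) for 42 of the 43 members, both axes logarithmic, as the mean with the SD over 2 libraries. The dotted line marks equal levels, and Kif28, at 0 in Q344X, is left out. Most genes lie near the line. Kif19a lies farthest above it, Kif22, Kif7, Kif24, Kif15 and the untested Kif2c and Kif18b are among others above, and Kif18a and Kif26b are among those below.

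Because related kinesins can stand in for one another, the share of each gene within its set was computed per kilobase in each library, for 6 sets. In the sets of light chains, of the partners of Kif3a, of KIF21 and of KIF13 genes every share was apart between the genotypes, which for 2 against 2 libraries cannot give a permutation p below 0.33, so no test was made. In a set of 2 genes the second share is fixed by the first. Taken singly, 63.1% of all tested genes were apart. Genes of a set differ in exon length (Kif13b 13017 bases, Kif13a 8094). The shares were not corrected for the difference with length between the Q344X libraries described below. Kif1b made up 53.2% and 50.3% of the KIF1 set in WT and 44.8% and 41.9% in Q344X, while Kif1a went from 41.2% and 40.9% to 49.6% and 46.8%. Kif1c, at 5.60% and 8.78% in WT and 5.57% and 11.3% in Q344X, overlapped. Among the partners of Kif3a, Kif3c made up 27.7% and 31.0% in WT and 38.2% and 39.2% in Q344X. Kif21b made up 39.4% and 45.8% of the KIF21 pair in WT and 53.2% and 62.1% in Q344X, and Kif13b 19.2% and 16.5% of the KIF13 pair in WT and 13.3% and 10.2% in Q344X. Within the light chains Klc1 made up 65.1% and 63.2% in WT and 67.9% and 68.9% in Q344X. Within the heavy chains the shares of Kif5a overlapped, at 34.6% and 36.7% in WT and 35.2% and 27.4% in Q344X, as did those of Kif5b, while Kif5c was apart, at 38.7% and 36.4% in WT and 42.0% and 43.1% in Q344X.

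**Figure D4:**
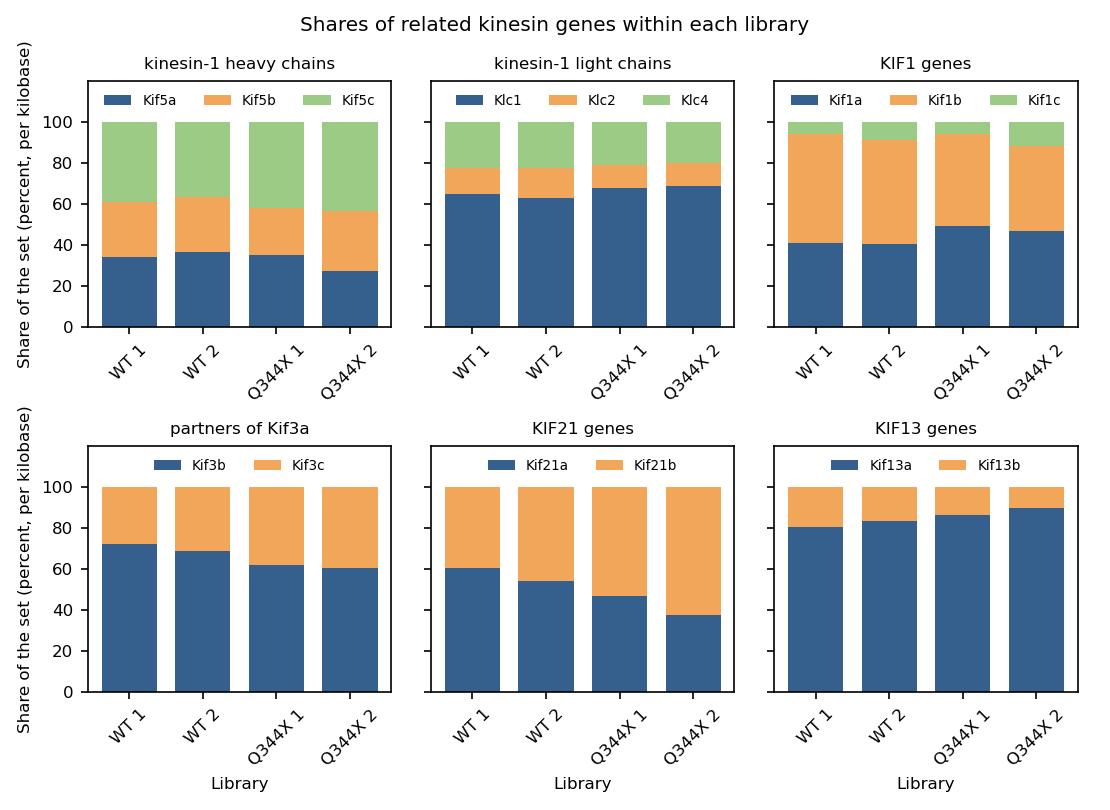
Share of each gene in 6 sets of related kinesin genes, in percent of the set's summed normalized count per kilobase, with 1 bar per library. The share of Kif3c, of Kif21b and of Kif13a is higher in both Q344X libraries than in either WT library.

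Mitotic kinesins were scarce in both genotypes, and those that changed went in different directions. Their summed normalized count per kilobase was 143 and 132 in WT and 179 and 157 in Q344X, of which Kif22 alone held 35.0 ± 3.95 in WT and 81.8 ± 12.5 in Q344X (SD, n = 2). Of 12 members 10 were tested, and of these Kif22 rose, Kif18a fell and 8 did not pass, with a median log2 fold change of -0.30. The share called was 20%, beside 14.6% of all tested genes. Kif22, which pushes chromosome arms away from the spindle poles (ENSMUSG00000030677, chromosome 7, 127027729 to 127042471, minus strand, GRCm38), was at 158 and 185 normalized counts in WT and at 357 and 444 in Q344X, without overlap (1.21 ± 0.22, SE, limma adjusted p = 0.0246). Without WT replicate 1 it did not pass (adjusted p = 0.0829). Kif18a, which dampens chromosome movement at the metaphase plate (ENSMUSG00000027115, chromosome 2, 109280738 to 109341747, plus strand, GRCm38), was at 128 and 140 in WT and at 61.4 and 72.0 in Q344X, without overlap (-1.001 ± 0.24, adjusted p = 0.0454). This call was close to the threshold and was lost without WT replicate 1 (0.163) or 2 (0.227), under quantile normalization (0.0862), with a minimum mean of 50 (0.0523) and after the length correction (0.0660). Mettl15, which overlaps Kif18a on the other strand, was at 91.5 and 102 in WT and at 55.4 and 54.7 in Q344X.

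Kif20b, which acts in the final separation of dividing cells, was at 146 and 155 normalized counts in WT and at 102 and 64.3 in Q344X (-0.88 ± 0.29, SE, limma adjusted p = 0.0929). Kif4, a chromosome-bound motor, was at 175 and 119 in WT and at 226 and 104 in Q344X, so the libraries of each genotype differed more than the genotypes. Kif11, which pushes spindle poles apart, was at 62.4 and 66.2 in WT and at 70.3 and 49.9 in Q344X, and Kifc1, which pulls them together, at 57.2 and 36.1 in WT and at 40.6 and 29.8 in Q344X. Kif14, Kif15, Kif20a and Kif23 had between 9.60 and 71.8 normalized counts in every library, and none of them passed. Kif2c, a microtubule depolymerase of the centromere, and Kif18b were below the filter, at 3.12 and 5.01 in WT and 8.91 and 14.4 in Q344X for Kif2c, and at 1.04 and 2.01 in WT and 4.95 and 1.92 in Q344X for Kif18b. Of 24 tested genes of cell division 2 fell, 0 rose and 22 did not pass, beside 9.1% of all tested genes called lower. The 2 were Spc25 and Nuf2 of the kinetochore, with log2 fold changes of -2.58 ± 0.22 and -1.54 ± 0.35. Spc25 was at 2559 and 2765 normalized counts in WT and at 378 and 525 in Q344X. The whole cell division list, Spc25 included, summed to 5814 and 5434 in WT and to 3681 and 3239 in Q344X. The fall of Spc25 alone was as large as that of the sum. Mki67, a marker of cycling cells, was at 61.4 and 22.1 in WT and at 35.6 and 8.64 in Q344X (-1.01 ± 0.77), not past the threshold. Of 5 tested markers of dividing cells, all also among those 24 genes, 0 passed, and their median log2 fold change was 0.097. The 2 at an unadjusted p under 0.05 had opposite signs, Bub1 with 1.104 ± 0.41 and Top2a with -1.03 ± 0.37. The list summed to 175 and 99.3 in WT and to 125 and 84.5 in Q344X. Their part in the values of the mitotic members was not tested.

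Of the 3 tested members outside these roles, Kif26b fell and the other 2 did not pass. Kif26b, an atypical kinesin known from kidney development and Wnt5a signalling (ENSMUSG00000026494, chromosome 1, 178529125 to 178939200, plus strand, GRCm38), was at 345 and 418 normalized counts in WT and at 165 and 200 in Q344X, without overlap (-1.06 ± 0.22, SE, limma adjusted p = 0.0322). The call was lost without WT replicate 1 (adjusted p = 0.0563) or 2 (0.170) and after the length correction (0.0877). Its relative Kif26a was at 77.0 and 87.2 in WT and at 84.2 and 156 in Q344X (0.48 ± 0.35). Kif2a, a microtubule depolymerase of spindles and axons, was at 2436 and 2674 in WT and at 2122 and 2331 in Q344X (-0.20 ± 0.17). Kif28 was below the filter, at 4.16 and 1.003 in WT and at 0 in both Q344X libraries.

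Kinesin genes have long transcripts, and the 2 Q344X libraries differed from each other with exon length. The median difference of Q344X replicate 2 minus replicate 1 over all tested genes was 0.30 on the log2 scale for genes with under 2000 bases of exon and -0.24 for genes with over 6000 bases, a class that holds 23 of the 40 tested members. In WT the same medians, replicate 2 minus replicate 1, were 0.11 and -0.08. Of the tested members 26 of 40 were lower in Q344X replicate 2 than in replicate 1, beside 49.4% of all tested genes. The median difference was -0.57 for the 10 mitotic members, -0.16 for the 16 transport members and -0.11 for the 11 ciliary members. Kif19a, Kif7 and Kif22, with 0.41, 0.24 and 0.31, and Kif18a and Kif26b, with 0.23 and 0.27, were higher in replicate 2. With each library corrected for exon length Kif19a, Kif7 and Kif22 still rose, Kif24 also passed, and 0 members fell at the threshold.

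**Figure D5:**
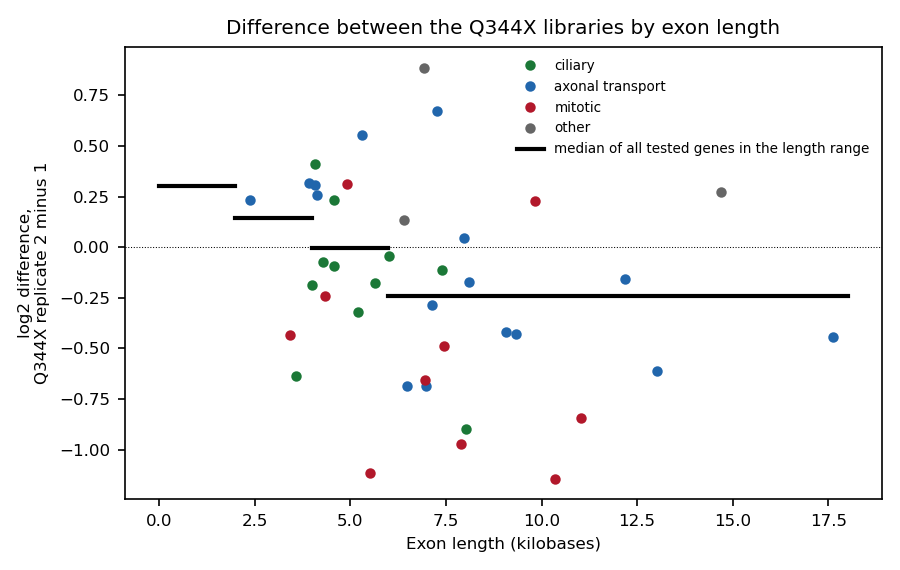
Difference between the Q344X libraries (log2, replicate 2 minus replicate 1) of each tested kinesin gene against its exon length in kilobases, by role group. Black bars give the median over all tested genes in 4 length ranges, from 0.30 under 2 kilobases to -0.24 over 6 kilobases, and 26 of the 40 genes lie below 0.

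The tracks and the opposing motor were examined from lists of related genes. Of 25 genes of dynactin and of cytoplasmic dynein, its ciliary form included, 0 passed in limma. An unadjusted p under 0.05 was reached by 7 of them, beside 34.7% of all tested genes, and the median log2 fold change was 0.06. Dync2h1, the heavy chain of the ciliary form, was at 2896 and 1792 normalized counts in WT and at 1728 and 688 in Q344X (-1.06 ± 0.47). Dync1h1, heavy chain of the form moving cargo back toward the cell body, was at 13687 and 11472 in WT and at 13951 and 9062 in Q344X. Dctn1 and Pafah1b1, of dynactin and of a dynein regulator, had log2 fold changes of 0.40 ± 0.18 and 0.44 ± 0.17. Of 33 adaptors and regulators of kinesin cargo 2 rose, 0 fell and 31 did not pass, with a median of 0.0038. Among all tested genes 5.46% were called higher. Hap1, the huntingtin-associated adaptor of kinesin-1, rose from 1761 and 2072 to 4653 and 6164 (1.49 ± 0.21, SE, adjusted p = 0.0141), and Rab3b, of the synaptic vesicle proteins, from 93.6 and 91.2 to 211 and 182 (1.08 ± 0.22, adjusted p = 0.0312). Of 14 tubulin genes 4 rose, 0 fell and 10 did not pass, beside the same 5.46% of all tested genes. Those that rose were Tubb2b (2.65 ± 0.17), Tubb2a (1.46 ± 0.16), the neuronal Tubb3 (1.42 ± 0.17) and Tuba1a (1.005 ± 0.18), and tubulin genes are similar enough that reads may be split between them.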

How the data were processed

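Retinal RNA was measured in 4 libraries, 2 per genotype. The deposited table holds a signal per Ensembl gene, gene counts that the authors divided by a size factor per library, and in each column all values above 0 were whole multiples (within 0.1) of a smallest step, taken as 1 read, which gave the depths. The submitters' processing notes name, with no roles, STAR, DESeq2 1.16.1, featureCounts, FastQC, Trim Galore 0.4.4 and the build mm10. Annotation and strand setting: not given in the sources used here. For 2 columns, where 1 read is worth close to 1, the reads did not pass a unit check, so no count model was fitted and the planned count test was not run.

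Ensembl identifiers gave a symbol for 52403 of 52636 genes. Positions and exon lengths (the union of annotated exons) are from GENCODE M21 on GRCm38, the assembly known as mm10. limma 3.58.1 (R 4.3.3) fitted log2(normalized count + 1), two-sided, with variances moderated along a trend with the mean, over genes with a mean of at least 10, with Benjamini-Hochberg adjustment. It was tested on simulated data. Fold changes on this scale understate those of low genes. With 2 against 2 libraries no permutation p can go below 0.33, so adjusted p-values rest on the variance shared between genes. All members past the threshold, all ciliary members and the 4 most abundant of each other role are named with every library's value; other genes of each list by largest change past the threshold, or by role after their values were seen. The members and lists were chosen with earlier results of these data known. Alternatives were other pseudocounts, filters, scalings and variance settings, each library left out in turn (then also from the filter, with the lone library of its group assumed to vary like the other genotype's) and, chosen after seeing the data, a loess correction for exon length. Values of some genes are not reported here.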

Additional observations from a re-analysis of the deposited data

How the results depend on the processing

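Kif19a passed the threshold and kept its direction in all 13 alternatives, with log2 fold changes of 3.54 to 3.95, Kif7 passed in 12 and Kif22 in 11, whereas Kif26b passed in 9 and Kif18a in 7. Testing every gene above 0 gave 153 higher and 383 lower genes, 1 higher member (Kif19a, the 1 higher ciliary member) and 0 lower members, with 0 higher and 0 lower mitotic members, 0 lower among the others, 5 higher and 4 lower genes over the related and marker lists and a median of -0.63 for the other members; this setting tests more genes. A minimum mean of 50 and quantile normalization each left 1 lower member and 0 lower mitotic members. The length correction gave 1464 higher genes, 32 higher and 27 lower genes over the related and marker lists, and 0 lower members, with 0 lower in the mitotic and 0 in the other group. The cause was not tested.

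Leaving out 1 library, which takes the spread from the other genotype's 2 libraries and the trend over genes, gave 555 to 2388 higher and 904 to 3045 lower genes, 3 to 5 higher and 0 to 6 lower members, 0 to 1 higher and 0 to 3 lower transport members, 0 to 1 higher and 0 to 2 lower mitotic members, 0 to 1 higher and 0 to 1 lower other members, and 13 to 38 higher and 12 to 44 lower genes over the related and marker lists. The highest counts came without Q344X replicate 1, where Kif1b, Kif13b, Kif21a and Kif20b also fell and Kifc3 and Kif26a rose. Medians ranged from -0.11 to 0.046 over all members, -0.026 to 0.29 for ciliary, -0.14 to 0.10 for transport and -0.53 to 0.051 for mitotic members. Signs turned, all short of the threshold, within these ranges: Kif27 -0.026 to 0.29, Kif3a -0.34 to 0.29, Kif17 -0.13 to 0.15, Kif1a -0.41 to 0.016, Kif5a -0.58 to 0.11, Kif1c -0.60 to 0.099, Klc2 -0.27 to 0.12, Klc4 -0.084 to 0.15, Kif14 -1.11 to 0.036, Kif23 -0.91 to 0.065, Kif11 -0.36 to 0.13 and Kif4 -0.47 to 0.64. Kif3a had 0.0035 under 75th percentile scaling, Kif11 0.094 and Klc4 -0.027 under quantile normalization, and Klc4 -0.017 with the length correction. Members below about 10 normalized counts, Kif2c, Kif18b and Kif28, were too low to test. No paired analysis was possible because the labels give no replicate numbers that the groups share.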

Other observations

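Kinesin genes outside the naming rule were also measured. Klc3, a kinesin light chain known from sperm tails, was at 1716 and 2442 normalized counts in WT and at 3296 and 5627 in Q344X, without overlap (log2 fold change 1.07 ± 0.31, SE, limma adjusted p = 0.0720). Cenpe, the kinesin of the kinetochore, was at 233 and 166 in WT and at 210 and 107 in Q344X. Kifc5b, a close copy of Kifc1, was at 72.8 and 61.2 in WT and at 63.4 and 52.8 in Q344X, and reads may be split between Kifc5b and Kifc1. Kif1bp, which encodes a protein that binds kinesin motor domains, was at 2084 and 2288 in WT and at 1968 and 2312 in Q344X. None of these 4 passed in limma, with 1 at an unadjusted p under 0.05.

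Of the 43 members 18 are overlapped by an annotated gene on the other strand, and the genes named here were picked after their values were seen. Within Kif13a lies the antisense gene Gm48250, which was at 81.1 and 94.2 in WT and at 10.9 and 9.60 in Q344X, while Kif13a itself did not pass. Sh2d5, which overlaps Kif17 on the same strand, was at 749 and 936 in WT and at 442 and 469 in Q344X, and the Kif17 libraries of the genotypes overlapped.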
